A study of Homo sapiens with 6 samples.

Results

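The genes described here are 10 members of the LIM domain protein class that sit at cell adhesions and on actin filaments: ZYX, LPP, TRIP6, AJUBA, LIMD1, PXN, TGFB1I1, FHL2, CSRP1 and PDLIM7. They were taken by name, out of 58219 gene identifiers in the count files, and each matched 1 identifier by its symbol. Reads were counted in 6 polyA-selected, strand-specific libraries of SNU-449, a human hepatocellular carcinoma cell line. The label of 3 libraries names a stable line expressing Yes WT and that of the other 3 a stable line expressing Yes T348I. Yes, encoded by YES1, is a SRC family tyrosine kinase, and T348I changes its gatekeeper residue, which lines the pocket that kinase inhibitors bind. All 6 libraries came from cells given 100 nM dasatinib, an inhibitor of SRC family kinases, so every value below is a level under the drug and the comparison asks which transcripts differ with the altered Yes. Each group is 1 stable line, so that the Yes allele cannot be told apart from other differences between those lines, and nothing in the labels tells if the 3 libraries per line are from separate cultures. P-values therefore cover only how these libraries vary, and that may be technical variation.

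A LIM domain is a pair of zinc fingers that binds other proteins. Zyxin (ZYX), LPP and TRIP6 carry their LIM domains behind a proline-rich stretch, through which zyxin holds Ena/VASP actin-assembly proteins at focal adhesions and stress fibres. AJUBA and LIMD1 belong to the same family, and are known for binding the LATS kinases of the Hippo pathway as well as cell junctions. Paxillin (PXN) is a focal adhesion scaffold that SRC and focal adhesion kinase phosphorylate, and TGFB1I1 encodes its relative Hic-5. FHL2 is a LIM-only cofactor that binds integrins and transcription factors, CSRP1 is a LIM protein of actin bundles, and PDLIM7 (Enigma) joins a PDZ domain to LIM domains. ZYX, TGFB1I1, FHL2, CSRP1 and PDLIM7 appear in the list of targets of serum response factor (SRF) and its actin-regulated cofactors MRTF that was used here, and AJUBA in that of the coactivators YAP and TAZ.

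The total over genes ranged from 14360137 to 19608763 counts per library, and each member had 711 to 6548 counts in each library, so none was near the limit of detection. Levels are given as CPM, counts scaled to a common library total. YES1 itself averaged 364 ± 6.17 CPM in the Yes WT line and 409 ± 26.2 CPM in the Yes T348I line (SD, n = 3 each; log2 fold change 0.17, adjusted p = 9.94e-05), a level that can hold both the native and the introduced gene. Hepatocyte markers were nearly absent: 7 of 10 stayed at or below 1 CPM in every library, ALB had at most 10 counts, and the list summed to 5.05 to 6.09 CPM in the Yes WT line, against 2.68 to 4.36 CPM in the Yes T348I line. Among the leukocyte markers, CD3E and TYROBP had no count, and the list, mostly CD14, summed to 2.42 to 2.94 CPM in the Yes WT line, against 0.352 to 1.23 CPM in the other. All 5 endothelial markers stayed at or below 1 CPM, with sums of 1.204 to 1.528 CPM and 0.615 to 0.634 CPM. The stellate cell and fibroblast markers COL1A1, COL1A2 and RGS5 were expressed and DCN, LUM and PDGFRB had at most 9 counts, with list sums of 1094 to 1158 CPM in the Yes WT line, against 821.7 to 876 CPM in the Yes T348I line. COL1A2 was lower there (log2 fold change -0.63, adjusted p = 9.99e-20), while COL1A1 (0.15, adjusted p = 0.0042) and RGS5 (0.14, adjusted p = 0.0024) were slightly higher. The cholangiocyte list was carried by KRT7, SOX9 and SPP1, while KRT19, EPCAM and CFTR had at most 17 counts in any library. This list summed to 1505 to 1553 CPM in the Yes WT line, against 1278 to 1362 CPM in the Yes T348I line. Its genes went both ways, SPP1 lower (log2 fold change -0.98, adjusted p = 5.72e-27) and KRT7 (0.96, adjusted p = 2.34e-24) and SOX9 (0.49, adjusted p = 4.48e-14) higher in Yes T348I. The part of these markers in the results was not tested.

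Of the 10 members, 8 were higher and 2 lower in Yes T348I at an edgeR adjusted p under 0.05, and none missed the threshold. Over all 14723 genes tested, 28.0% were called higher and 27.3% lower, 55.3% in all. Genes with a mean level at or above that of the lowest member are called more often: of those 3852 genes, 51.3% were higher and 22.8% lower, 74.1% in all. The groups did not overlap for 8 members that were higher, as for 29.9% of all genes tested, and for 1 that was lower, as for 29.7%. The median log2 fold change of the members was 0.42, against -0.01 over all genes tested. With a minimum change of 1.2-fold asked of each gene, the 8 higher members were still called, where 9.47% of all genes were, and neither of the lower ones was, where 12.5% of all genes were. A rise of at least 0.5 on the log2 scale was called for 2 members, AJUBA and ZYX, against 5.26% of all genes tested, and one of at least 2-fold for AJUBA only, against 0.876%. The members were picked with earlier results of these libraries known, so these counts describe them and are no independent evidence. These are bulk libraries, in which more cells of one kind and more RNA per cell cannot be told apart.

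**Figure D1:**
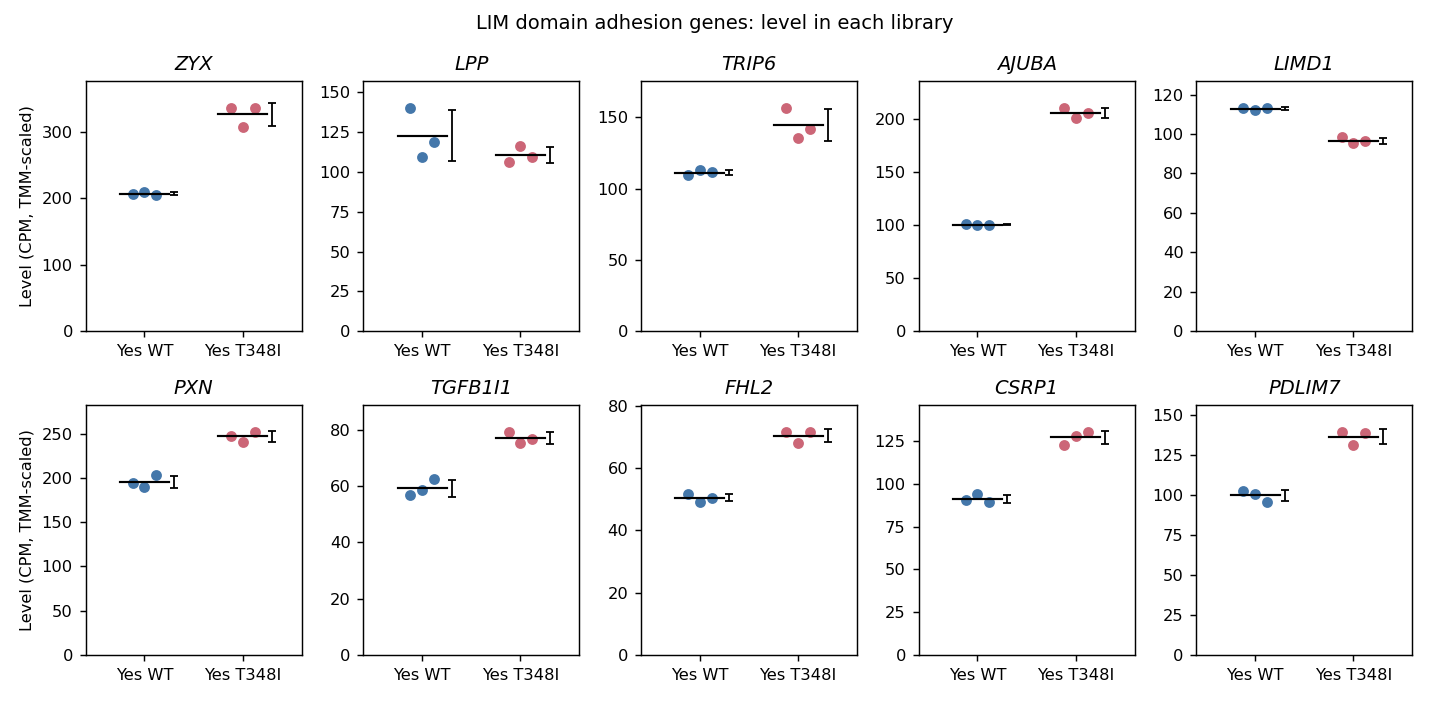
Level of each member in CPM (linear axis from 0) in the 3 Yes WT and 3 Yes T348I libraries, with the mean as a line and the SD as a bar. In 8 panels every Yes T348I library lies above every Yes WT library, in the LIMD1 panel every one lies below, and in the LPP panel the groups overlap.

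Because most members moved upwards together, the bases before their start sites were read for the letters that SRF, the TEAD partners of YAP, AP-1 and SP1 are known to bind. RefSeq (GRCh38.p14) windows of 250 bases before an annotated start were found for all members but LIMD1, 24 windows in all for 9 genes. The CArG box, the 10-base SRF element, was searched by its consensus on both strands, as were the other letters. It occurred in windows of LPP, TGFB1I1 and FHL2, that is 3 of 9 members, against 1.44% of the 27305 genes in the table and 2.81% of the 5191 genes with more than 1 window. FHL2 and TGFB1I1 rose, but so did ZYX, CSRP1, PDLIM7, TRIP6, PXN and AJUBA, whose windows held no match. Of these, ZYX, CSRP1 and PDLIM7 are in the list of MRTF-SRF targets, and LPP is not in it. LPP was called lower, with a log2 fold change below 0 in all 18 alternatives (-0.23 to -0.05). Its groups overlapped, and 5 of the 18 alternatives did not call it. The 4 distinct matches are shown with 10 bases on each side, 5′ to 3′ on the strand of the gene, the match in capitals. They lie at chr2:105438595-105438624 (minus strand, first base of the match 101 bases before the start), chr2:105399091-105399120 (minus, 59 bases before another start), chr16:31473144-31473173 (plus, 51 bases before) and chr3:188212519-188212548 (plus, 183 bases before).
FHL2, upstream start: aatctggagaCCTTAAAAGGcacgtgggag
FHL2, inner start: gcgtgcatctCCTTATATGGtcaaatgaca
TGFB1I1, inner start: tggaggggagCCAAATTTGGcttgggtgaa
LPP, inner start: gcctgcttctCCATATTTGGaaatgtttac

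The whole window before the upstream start of FHL2 is given because it lies on no exon in GENCODE release 29 and holds the CArG box (capitals) in a member that rose. It is chr2:105438514-105438763 on GRCh38, minus strand, with a GC content of 55.6%.
FHL2, 250 bases before the start: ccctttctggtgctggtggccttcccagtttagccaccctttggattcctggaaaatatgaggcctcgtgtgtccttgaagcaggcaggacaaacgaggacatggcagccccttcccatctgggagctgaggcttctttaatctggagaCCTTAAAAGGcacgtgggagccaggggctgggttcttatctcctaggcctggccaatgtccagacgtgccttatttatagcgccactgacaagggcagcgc
The letters GGAATG, part of the TEAD element, or their complement CATTCC, occurred in windows of 6 of 9 members (LPP, TRIP6, PXN, FHL2, AJUBA and CSRP1), against 14.3% of all genes and 23.4% of genes with more than 1 window. They share no base with a CArG match. The 3 matches shown are those of AJUBA, the member with the largest rise, of TRIP6, which has a single window, and of LPP, which was called lower. They lie at chr14:22976884-22976913 (minus strand, 59 bases before the start), chr7:100867306-100867335 (plus, 69 bases before) and chr3:188212656-188212685 (plus, 44 bases before).
AJUBA, inner start: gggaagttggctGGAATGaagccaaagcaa
TRIP6: gaccctcccccaGGAATGtggtgacgtcat
LPP, inner start: cccttcccccttCATTCCtctgtcccttgt
The AP-1 letters TGANTCA occurred in windows of LPP and TRIP6, 2 of 9 members, against 8.06% of all genes and 13.1% of genes with more than 1 window. The SP1 letters GGGCGG were the most frequent, in 8 of 9 members, against 46.2% of all genes and 69.1% of genes with more than 1 window. The windows before the inner starts of AJUBA, TGFB1I1 and FHL2 (that of the CArG match) lie wholly on exons annotated in GENCODE release 29, and so does nearly all of that of TRIP6. A match of this kind is a description of the sequence. Members with several windows have more chances of one, and LPP has 7 of the 24.

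AJUBA changed most. This gene (ENSG00000129474.15, GRCh38 chromosome 14, 22971174 to 22982642, minus strand) encodes an adaptor between cell junctions, the actin skeleton and the LATS kinases. Its level was 101, 100.0 and 99.8 CPM in Yes WT replicates 1 to 3, and 210.5, 201 and 206 CPM in Yes T348I replicates 1 to 3. The groups lay far apart, with little spread within either. The mean rose from 100.3 ± 0.595 to 206 ± 4.98 CPM (SD, n = 3 each), and the log2 fold change, 1.04 (SE 0.04, adjusted p = 6.92e-26), is above that of 99.2% of the genes tested. A gene annotated over it on the same strand had no count in any library. Its divergent neighbour AJUBA-DT, at 2.34 ± 0.404 CPM in the Yes WT line, against 2.75 ± 0.433 CPM in the Yes T348I line (SD, n = 3 each), did not pass the test (log2 fold change 0.24, SE 0.20, adjusted p = 0.32).

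LIMD1, the relative of AJUBA that also binds LATS kinases, went the other way. The gene (ENSG00000144791.9) lies on chromosome 3 at 45555394 to 45686338, plus strand. Its level was 113, 112 and 113 CPM in the Yes WT line, against 98.3, 95.3 and 96.4 CPM in the Yes T348I line. The difference is small, and the groups were still separate. The mean fell from 113 ± 0.596 to 96.7 ± 1.53 CPM (SD, n = 3 each), that is -0.22 on the log2 scale (SE 0.04, adjusted p = 3.99e-06). After an offset for GC content and exon length in each library it was -0.11 (SE 0.04, adjusted p = 0.00567). Within a library, where library scaling cancels, the log2 ratio of AJUBA to LIMD1 per kilobase of exon was 0.902 to 0.917 in Yes WT and 2.158 to 2.182 in Yes T348I. It rose by 1.26 (exact two-sided permutation p = 0.10, the smallest that 3 libraries against 3 can give). Adjusted over the 9 ratios compared, that p was 0.13, as it was for each of the 7 ratios whose groups did not overlap. The ratios restate the changes of their genes, and single genes did not overlap in 59.5% of all genes tested.

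ZYX showed the second largest rise. Zyxin marks mature adhesions and stress fibres and is recruited there under tension. The gene (ENSG00000159840.15) lies on chromosome 7 at 143381080 to 143391111, plus strand. Its level was 206, 209 and 205 CPM in the Yes WT line, against 336, 307 and 336 CPM in the Yes T348I line. Replicate 2 was the lowest of the Yes T348I libraries and still stood well above Yes WT. On the log2 scale the change was 0.66 (SE 0.04, adjusted p = 1.08e-19), with means of 207 ± 2.18 and 326 ± 16.8 CPM (SD, n = 3 each).

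TRIP6, an adaptor that binds zyxin partners, lysophosphatidic acid receptor 2 and LATS kinases, rose less. The gene (ENSG00000087077.13) lies on chromosome 7 at 100867138 to 100873454, plus strand. Its level was 109.7, 113 and 111 CPM in the Yes WT line, against 157, 135 and 142 CPM in the Yes T348I line. All Yes T348I libraries were above all Yes WT libraries, and they differed among themselves more than those did, with replicate 1 the highest. On the log2 scale the change was 0.38 (SE 0.04, adjusted p = 2.78e-10), with means of 111 ± 1.63 and 145 ± 11.02 CPM (SD, n = 3 each). The log2 ratio of ZYX to TRIP6 within a library was 0.568 to 0.595 in Yes WT and 0.785 to 0.932 in Yes T348I, so that ZYX gained on TRIP6 by 0.282 on this scale (exact permutation p = 0.10).

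LPP, the largest gene of the set, gave the least certain difference. It encodes a zyxin relative of adhesions and cell contacts (ENSG00000145012.13, chromosome 3, 188153284 to 188890671, plus strand). Its level was 140.2, 109 and 119 CPM in the Yes WT line, against 106, 116 and 109 CPM in the Yes T348I line. Yes WT replicate 1 stood above all others, and the groups overlapped. The means were 123 ± 15.9 and 111 ± 5.07 CPM (SD, n = 3 each), which is a log2 change of -0.16 (SE 0.05, adjusted p = 0.0092). Without Yes WT replicate 1 it was -0.05 (adjusted p = 0.43), and with the offset for GC content and length -0.06 (adjusted p = 0.25). DESeq2 did not call it either (adjusted p = 0.29), and it was called under 13 of 18 alternatives. The longest LPP transcript has a GC content of 39.6%, the lowest of the members, which otherwise ranged from 47.5% to 64.9%. An antisense gene at the start of LPP, LPP-AS2, was at 2.31 ± 0.405 CPM in the Yes WT line, against 1.48 ± 0.414 CPM in the Yes T348I line (SD, n = 3 each). Its log2 fold change was -0.61 (SE 0.23, adjusted p = 0.024), which rested on 15 to 41 counts per library and was lost under 4 of 18 alternatives, among them leaving out Yes WT replicate 3 (-0.48, adjusted p = 0.14) or Yes T348I replicate 2 (-0.43, adjusted p = 0.14).

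The balance within the zyxin family therefore differed between the lines. Of the summed CPM per kilobase of exon of ZYX, TRIP6, AJUBA, LIMD1, LPP and WTIP, the last of which is no member, AJUBA made up 12.85% ± 0.0881 in Yes WT and 17.8% ± 0.423 in Yes T348I (SD, n = 3 each). LIMD1 made up 6.83% ± 0.0644 and 3.96% ± 0.130, and LPP 3.68% ± 0.482 and 2.25% ± 0.212. ZYX remained the largest share, with 45.5% ± 0.301 and 48.6% ± 0.878, and TRIP6 went from 30.45% ± 0.403 to 26.7% ± 0.978 although its own level rose. In none of these 5 genes did the shares of the groups overlap. Shares of a sum are tied together, so that the rises of AJUBA and ZYX lower the shares of the others. The levels of LPP itself overlapped, and LIMD1 itself changed by -0.22 on the log2 scale. For single genes the groups did not overlap in 59.5% of all genes tested. WTIP, named outside the rule for named genes, held 0.666% ± 0.0520 and 0.641% ± 0.0692, which overlapped.

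**Figure D2:**
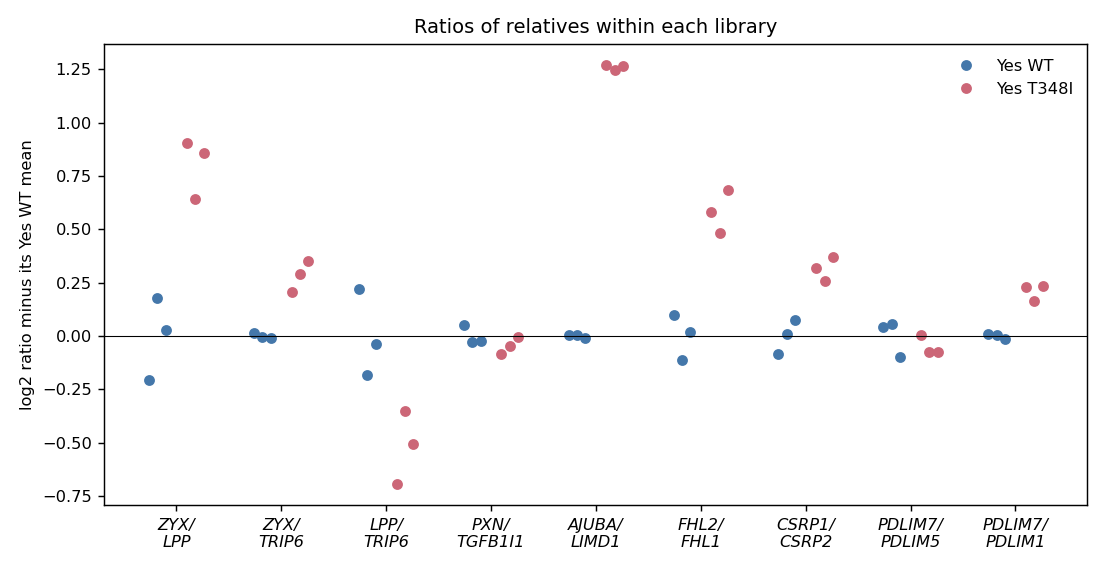
Log2 ratio of 2 relatives per kilobase of exon within each library, minus its mean over Yes WT, with 1 point per library. The points of the groups do not overlap in 7 of 9 pairs, AJUBA/LIMD1 being the most separate with a difference of 1.26, and overlap in PXN/TGFB1I1 and PDLIM7/PDLIM5. For single genes the groups do not overlap in 59.5% of genes tested, and no such share was computed over gene pairs. The ratios among ZYX, LPP and TRIP6 follow from one another.

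PXN and TGFB1I1, the paxillin pair, rose by similar amounts. Paxillin docks kinases and adaptors at focal adhesions through its phosphotyrosines (ENSG00000089159.16, chromosome 12, 120210439 to 120265771, minus strand). Its level was 195, 189.8 and 203 CPM in the Yes WT line, against 247, 241 and 252 CPM in the Yes T348I line. On the log2 scale the change was 0.33 (SE 0.03, adjusted p = 4.25e-11), with means of 196 ± 6.68 and 247 ± 5.79 CPM (SD, n = 3 each) and no overlap. With the GC content and length offset it was larger, at 0.52 (adjusted p = 1.44e-21). That offset also moved the median over all genes tested, from -0.01 to 0.04. Genes called higher went from 4123 to 5107 with it, and genes called lower from 4024 to 3344. The overlapping antisense gene PXN-AS1 was at 4.15 ± 0.913 and 5.08 ± 0.488 CPM (SD, n = 3 each) and did not pass (log2 fold change 0.31, adjusted p = 0.085); with reads of either strand counted its log2 fold change was 0.01. It passed with the GC content and length offset (0.37, adjusted p = 0.030), and on leaving out replicate 2 of Yes WT (0.49, adjusted p = 0.013) or replicate 2 of Yes T348I (0.38, adjusted p = 0.045).

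Hic-5, encoded by TGFB1I1 (ENSG00000140682.18, chromosome 16, 31471585 to 31477960, plus strand), competes with paxillin for partners and also enters the nucleus as a coactivator. Its level was 56.7, 58.5 and 62.5 CPM in the Yes WT line, against 79.4, 75.3 and 76.6 CPM in the Yes T348I line, without overlap. On the log2 scale the change was 0.38 (SE 0.05, adjusted p = 2.12e-09), with means of 59.2 ± 2.95 and 77.1 ± 2.07 CPM (SD, n = 3 each). The log2 ratio of PXN to TGFB1I1 was 1.23 to 1.31 in Yes WT and 1.18 to 1.25 in Yes T348I, a difference of -0.046 with overlap (exact permutation p = 0.30). At 3 libraries each this does not show that the ratio is equal. Their other relative, LPXN (leupaxin), named outside the rule, was far lower, at 3.83 ± 0.447 and 5.25 ± 0.801 CPM (SD, n = 3 each). It passed at adjusted p = 0.015 and failed under 4 of 18 alternatives, with an adjusted p of 0.087 on leaving out Yes WT replicate 3 and 0.10 on leaving out Yes T348I replicate 2.

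FHL2, CSRP1 and PDLIM7, each from a different family, rose by nearly the same factor. FHL2 (ENSG00000115641.18, chromosome 2, 105357712 to 105438513, minus strand), whose upstream window with the CArG box is printed above, was at 51.5, 49.2 and 50.5 CPM in the Yes WT line, against 71.5, 67.9 and 71.7 CPM in the Yes T348I line. The groups were separate, and the change on the log2 scale was 0.48 (SE 0.05, adjusted p = 9.29e-12), with means of 50.4 ± 1.16 and 70.4 ± 2.15 CPM (SD, n = 3 each). Its relative FHL1 did not pass, at 83.3 ± 4.26 and 77.6 ± 3.38 CPM (on the log2 scale -0.10, adjusted p = 0.059). FHL1 lies close to the threshold: it passed under 5 of 18 alternatives, among them leaving out Yes WT replicate 1 (adjusted p = 0.028) or Yes T348I replicate 2 (adjusted p = 0.028). The log2 ratio of FHL2 to FHL1 was -0.982 to -0.772 in Yes WT and -0.385 to -0.186 in Yes T348I, a shift of 0.583 towards FHL2 (exact permutation p = 0.10).

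CSRP1 (ENSG00000159176.13, chromosome 1, 201483530 to 201509456, minus strand), which binds zyxin and alpha-actinin, was at 90.3, 93.9 and 89.3 CPM in the Yes WT line, against 123, 128 and 131 CPM in the Yes T348I line. On the log2 scale the change was 0.48 (SE 0.04, adjusted p = 1.14e-13), with means of 91.2 ± 2.43 and 127 ± 3.89 CPM (SD, n = 3 each) and no overlap. CSRP2, its close relative, was at 33.4 ± 2.14 and 37.4 ± 1.57 CPM, which is a log2 change of 0.16 (SE 0.06, adjusted p = 0.022) that was lost under 6 of 18 alternatives. Those included leaving out Yes WT replicate 3 (0.11, adjusted p = 0.17) or Yes T348I replicate 2 (0.12, adjusted p = 0.087), and scaling by library size only (0.12, adjusted p = 0.0837). The log2 ratio of CSRP1 to CSRP2 was 0.554 to 0.715 in Yes WT and 0.896 to 1.008 in Yes T348I, without overlap (difference 0.316, exact permutation p = 0.10).

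PDLIM7 (ENSG00000196923.13, chromosome 5, 177483394 to 177497606, minus strand) links actin-associated proteins to its partners through PDZ and LIM domains. It was at 102, 101 and 95.9 CPM in the Yes WT line, against 139.8, 132 and 139 CPM in the Yes T348I line. The groups did not overlap, and the change on the log2 scale was 0.45 (SE 0.04, adjusted p = 3.91e-13), with means of 99.8 ± 3.45 and 137 ± 4.47 CPM (SD, n = 3 each). PDLIM5 rose by 0.50 (SE 0.04, adjusted p = 5.40e-15) from 114 ± 3.21 to 161 ± 4.72 CPM (SD, n = 3 each). The log2 ratio of PDLIM7 to PDLIM5 was 1.044 to 1.199 in Yes WT and 1.067 to 1.149 in Yes T348I, with overlap (difference -0.049, exact permutation p = 0.40). PDLIM1 rose less, from 180.1 ± 4.55 to 214 ± 1.76 CPM (SD, n = 3 each; log2 fold change 0.25, adjusted p = 5.42e-08). The log2 ratio of PDLIM7 to it shifted by 0.208 without overlap (exact permutation p = 0.10).

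**Figure D3:**
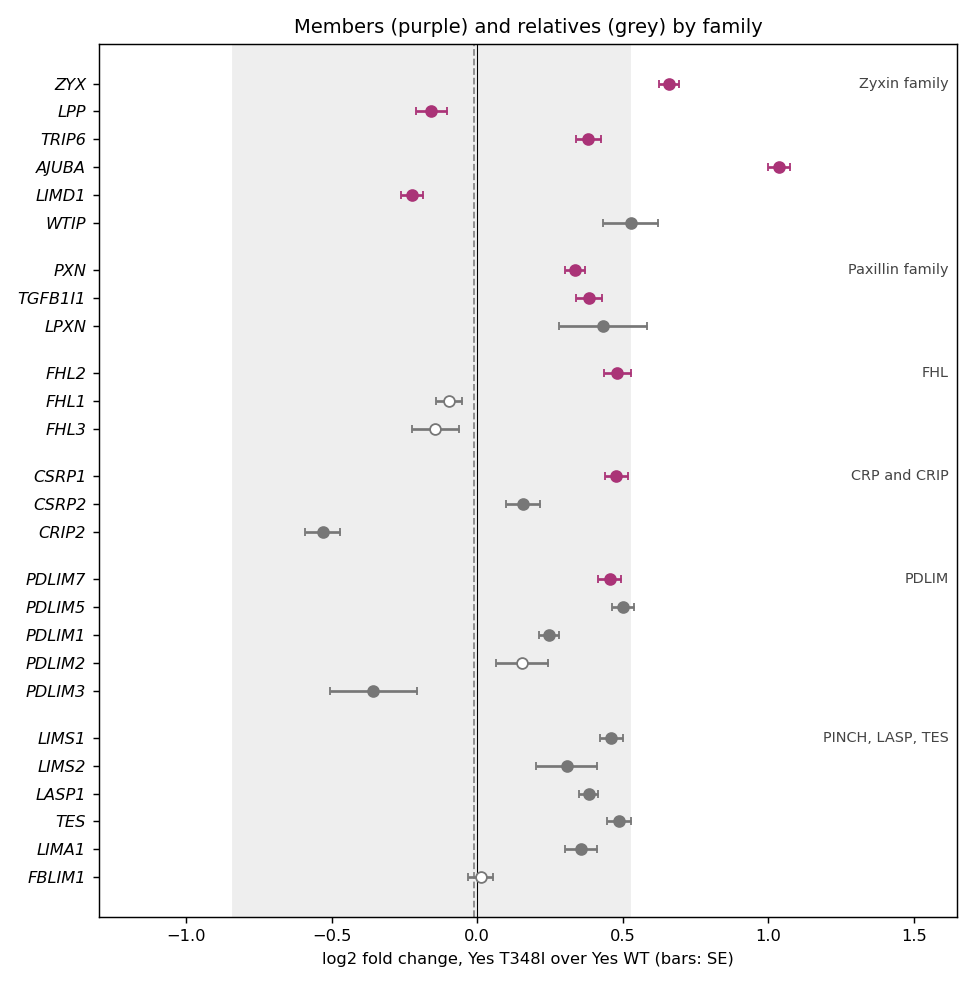
Log2 fold change (Yes T348I over Yes WT) with its SE for the members (purple) and relatives (grey), grouped by family; filled points passed an adjusted p of 0.05, open ones did not, the grey band spans the 5th to 95th percentile of all genes tested (-0.84 to 0.52) and the dashed line is their median. AJUBA and ZYX lie beyond the band, LPP and LIMD1 lie below 0, and the other 6 members lie between 0.33 and 0.48. The relative WTIP, at 0.527, lies just beyond the upper edge of the band (0.524).

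Per length of transcript, the members differed widely in level. In CPM per kilobase of exon (the union of all annotated exons), ZYX was highest in Yes WT with 59.4 ± 0.626 (SD, n = 3), followed by TRIP6 with 39.7 ± 0.583, PXN with 26.2 ± 0.896, PDLIM7 with 22.6 ± 0.782 and AJUBA with 16.8 ± 0.0996. TGFB1I1 followed with 10.96 ± 0.546, and LIMD1, CSRP1, FHL2 and LPP lay between 8.91 ± 0.0470 and 4.81 ± 0.623. The libraries of LIMD1 (8.86 to 8.94) and CSRP1 (8.65 to 9.10) overlapped, and no other neighbours in this order did. In Yes T348I AJUBA had moved from rank 5 to rank 3, with 34.4 ± 0.832, next to PXN with 33.1 ± 0.776, and their libraries overlapped. LIMD1 stood last but one there, with 7.63 ± 0.121 above LPP with 4.33 ± 0.198. The order depends on the length taken: with the longest transcript in place of the exon union, PDLIM7 ranked 3 in Yes WT, with 52.4 CPM per kilobase, above PXN with 35.9, and AJUBA ranked 4 in Yes T348I.

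**Figure D4:**
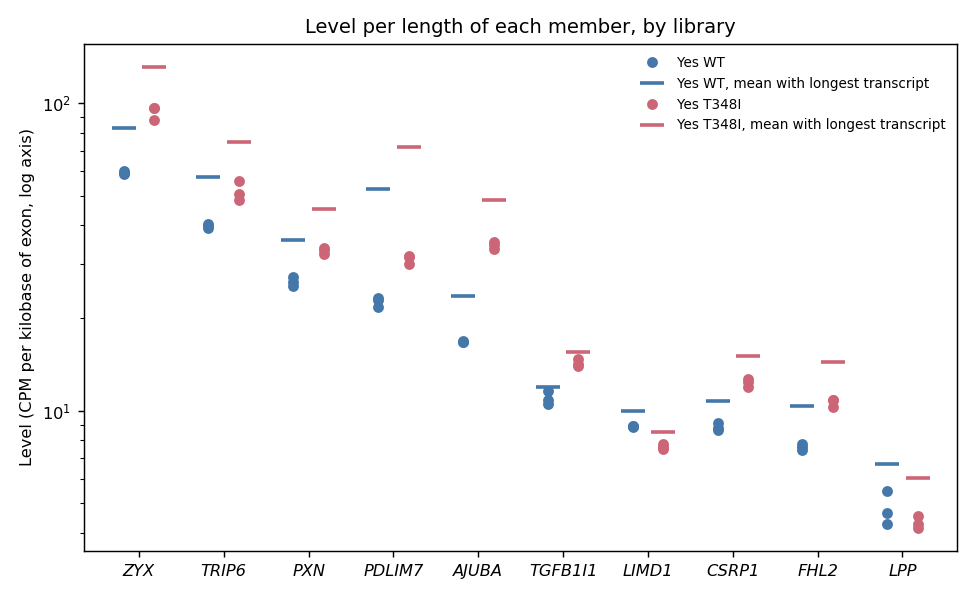
Level of each member in CPM per kilobase of exon (log axis) in each library, ordered by the Yes WT mean, with dashes for the mean computed from the longest transcript. ZYX is highest and LPP lowest in both lines by either length, and PDLIM7 moves most with the length taken.

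Of 41 other LIM domain genes of the cytoskeleton and adhesions, 34 passed the filter on low counts, and 17 of them rose, 7 fell and 10 did not pass, with a median log2 fold change of 0.16. Over all genes tested, 28.0% were called higher and 27.3% lower, and at the level of the members or above (60.4 CPM) 51.3% and 22.8%. Some of the 34, such as LIMCH1, NEBL and WTIP, lie below that level, so that neither share matches the list in level. With a minimum change of 1.2-fold there were 11 higher and 4 lower, beside 9.47% and 12.5% of all genes tested. The actin-oxidising enzyme gene MICAL2 rose from 205 ± 4.62 to 295 ± 2.93 CPM (SD, n = 3 each; log2 fold change 0.53, SE 0.03, adjusted p = 1.80e-17). LASP1 and TES, which encode LIM proteins of adhesions and stress fibres, rose too, LASP1 by 0.38 (SE 0.03) and TES by 0.49 (SE 0.04) on the log2 scale. The largest rise was that of LIMCH1, an activator of non-muscle myosin, at 0.64 (SE 0.09, adjusted p = 3.41e-08) from 10.7 to 16.8 CPM. The largest fall was that of NEBL, a nebulin relative, at -0.54 (SE 0.08, adjusted p = 2.10e-07) from 20.6 to 14.2 CPM. WTIP rose from 11.9 ± 0.895 to 17.0 ± 2.61 CPM (on the log2 scale 0.53, SE 0.09, adjusted p = 7.61e-06). FHL5, CSRP3 and NRAP, known from testis or striated muscle, had no count in any library.

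Few LIM genes of transcription could be tested. Of 18 LIM homeobox and LIM-only regulators and their LDB partners, 6 were tested, of which 2 rose and 2 fell. Over all genes tested, 28.0% were called higher and 27.3% lower, and 6 genes are too few to be set apart from that. LMO4, a LIM-only cofactor, rose from 56.9 ± 2.60 to 100.5 ± 2.15 CPM (SD, n = 3 each; log2 fold change 0.82, SE 0.04, adjusted p = 1.09e-19). LDB1, which encodes the protein that LMO4 binds, fell from 85.8 ± 2.51 to 67.1 ± 1.25 CPM (-0.35, SE 0.04, adjusted p = 3.35e-09). The log2 fold changes of LHX2, 0.30 (adjusted p = 0.017) and LHX1, -0.15 (adjusted p = 0.0036), were smaller. That of LHX2 was lost without Yes WT replicate 2 (adjusted p = 0.075), without Yes T348I replicate 3 (0.067) and with DESeq2 (0.079), and that of LHX1 with the GC content and length offset (adjusted p = 0.086).

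Of 30 genes for the proteins that zyxin, paxillin and the PINCH complex bind at adhesions, 26 were tested, of which 17 rose, 1 fell and 8 did not pass (median log2 fold change 0.21). Over all genes tested, 28.0% were called higher and 27.3% lower. Among genes at the level of the members or above, rises outnumber falls as well (51.3% and 22.8%). With a minimum change of 1.2-fold, 8 of the 26 were higher, beside 9.47% of all genes tested. The alpha-actinin genes ACTN1 and ACTN4, whose products cross-link actin and bind zyxin, rose by 0.51 (SE 0.03) and 0.52 (SE 0.03). VCL (vinculin) rose from 572 ± 21.5 to 783 ± 5.67 CPM (0.45, SE 0.03, adjusted p = 1.65e-15). NEDD9, a docking protein that SRC phosphorylates, rose from 113 ± 3.31 to 159 ± 2.82 CPM (0.49, SE 0.04, adjusted p = 9.43e-15).

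Of 20 Hippo kinases, adaptors and effectors, all tested, 11 rose and 6 fell (median log2 fold change 0.18). Over all genes tested, 28.0% were called higher and 27.3% lower, and at the level of the members or above 51.3% and 22.8%. Some of the 20, LATS1, LATS2 and SAV1 among them, lie below that level. Under the alternatives that kept all 6 libraries, 8 to 11 were higher and 1 to 7 lower. Among the direct partners of AJUBA and LIMD1, which were named after their values were seen, LATS2 rose from 28.99 ± 1.72 to 43.4 ± 1.13 CPM (SD, n = 3 each; log2 fold change 0.59, SE 0.06, adjusted p = 1.39e-11). LATS1 was at 32.8 ± 2.02 and 31.0 ± 1.22 CPM and did not pass (-0.08, adjusted p = 0.27). SAV1 was at 36.02 ± 0.930 and 32.2 ± 1.35 CPM (-0.16, SE 0.06, adjusted p = 0.016), a call lost under 6 of 18 alternatives, among them leaving out Yes WT replicate 1 (adjusted p = 0.060), Yes WT replicate 3 (0.057) or Yes T348I replicate 2 (0.069). WWC1, which encodes the LATS activator KIBRA, rose by 0.72 (SE 0.05, adjusted p = 2.10e-16). AMOTL2 and NF2 rose by 1.27 (SE 0.04) and 1.07 (SE 0.04), and AMOTL1 fell by 0.91 (SE 0.03), all on the log2 scale.

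The lists of transcription factor targets that hold members moved in the same direction with the members left out. Their counts stand beside 28.0% called higher and 27.3% lower over all genes tested. At the level of the members or above, the shares are 51.3% and 22.8%. Of 20 MRTF-SRF targets that are no members, 16 rose and 1 fell (median log2 fold change 0.45, against -0.01 over all genes tested), and of the 5 members in that list all rose. CALD1, TPM1, TAGLN and TPM4, which encode actin-binding proteins, had log2 rises of 1.27 for CALD1 (SE 0.04), 0.74 for TPM1 (SE 0.03), 0.80 for TAGLN (SE 0.04) and 0.60 for TPM4 (SE 0.03). Of 21 tested YAP/TAZ-TEAD targets other than AJUBA, 18 rose and 3 fell (median 0.69, against -0.01 over all genes tested). The matrix protein genes CCN2 and CCN1 had log2 rises of 1.73 and 1.66 (SE 0.04 each), ANKRD1 one of 1.90 (SE 0.04) and the receptor kinase gene AXL one of 1.21 (SE 0.03). The MRTF-SRF and YAP/TAZ-TEAD lists share no gene with each other, but they overlap the lists above. VCL, ACTN1 and FLNA also count among the adhesion partners, and FHL1 among the other LIM genes. AMOTL2, LATS2 and TEAD1 also count among the Hippo genes. Both lists share genes with earlier results of these libraries.

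At the members, forward-strand counts were 0.392% (LPP) to 3.62% (TRIP6) of the reverse-strand counts in any library, below the 6.13% to 6.59% over all genes. With reads of either strand counted, ZYX rose by 0.66 and LPP was at -0.15 (adjusted p = 0.014), close to the values above.

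**Figure D5:**
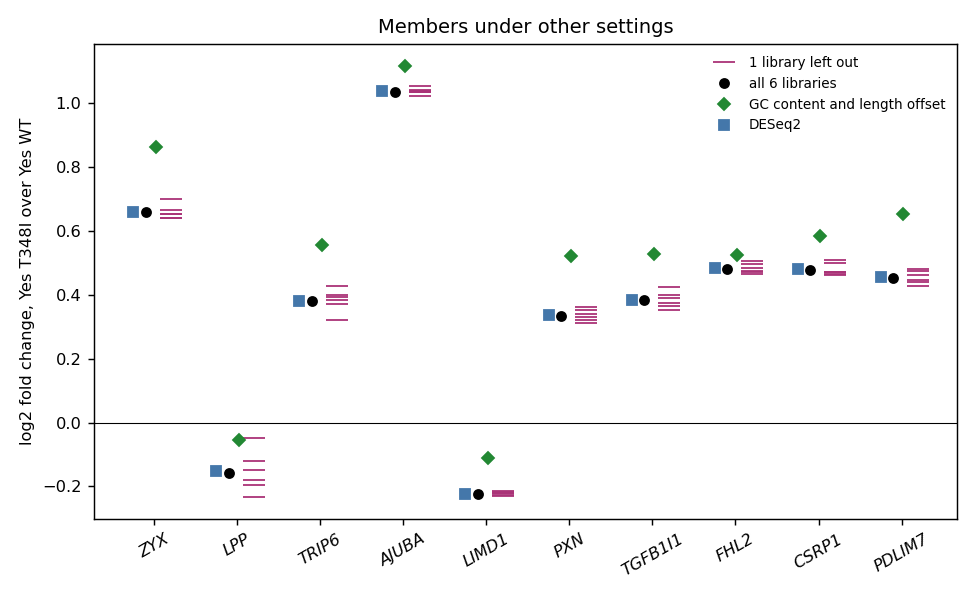
Log2 fold change (Yes T348I over Yes WT) of each member from all 6 libraries (black), with 1 library left out (dashes), with an offset for GC content and length (green) and from DESeq2 (blue). LPP moves towards 0 without Yes WT replicate 1 and with the offset, the offset also takes LIMD1 from -0.22 to -0.11 and ZYX from 0.66 to 0.86, and the 8 higher members stay above 0 throughout. The offset takes the median over all genes tested from -0.01 to 0.04.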

How the data were processed

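The deposited files hold raw counts of reads per gene and strand, 1 file per library. Per the submitters' processing notes, which name the build GRCh38, STAR 2.5.1b, Trimmomatic 0.35 and CASAVA 1.8.2 are listed with no role or order; no source used here gives the annotation release. The counts of the reverse strand were used, and the 4 summary lines were left out. Reads on no exon of the counted strand made up 6.37% to 7.87% of uniquely mapped reads, and reads that fit more than 1 gene 3.11% to 3.15%; neither entered any gene. Symbols were matched to 41805 of 58219 identifiers, and positions and exon lengths came from GENCODE release 29 (57881 matched).

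The test was that of edgeR 4.0.16 in R 4.3.3: filterByExpr (minimum count 10), TMM scaling and a quasi-likelihood F-test, Yes T348I against Yes WT, no covariate, Benjamini-Hochberg over the 14723 genes kept, threshold 0.05. CPM are TMM-scaled. Ratios were compared by exact permutation (SciPy 1.17.1). Replicates differed by more than counting noise in every pair (chi-square per degree of freedom 1.48 to 5.27). The test was checked on simulated data. Alternatives used DESeq2 1.42.0, limma-voom (limma 3.58.1), other scalings and filters, either-strand counts, a replicate block, a minimum change of 1.2-fold and leaving out each library. Another was an offset for GC content of the longest transcript and length of the exon union, with or without the block. Named are the members, YES1, up to 4 genes per list with the lowest adjusted p, the largest rise and fall among other LIM genes, relatives in ratios and tested antisense genes of members; exceptions are marked. The members and lists were chosen with earlier results of these data known. One marker gene is not reported here.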

Additional observations from a re-analysis of the deposited data

How the results depend on the processing

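The 8 members called higher stayed higher and called under all 18 alternatives of the test, and no named gene changed direction. The number of members called lower was 1 with DESeq2, 1 with the GC content and length offset, with or without the replicate block, 0 with a minimum change of 1.2-fold, and 1 to 2 with 1 library left out (1 without Yes WT replicate 1). With that minimum change 1394 genes were higher and 1835 lower over all genes tested. For other LIM genes the numbers were then 11 and 4, for LIM regulators of transcription 1 and 1, for adhesion partners 8 higher, for Hippo genes 1 lower and for YAP/TAZ-TEAD targets 0 lower. LIM regulators of transcription had 1 higher with DESeq2, 1 to 3 higher with 1 library left out (1 without Yes WT replicate 2, and likewise without Yes T348I replicate 3) and 1 lower with the GC content and length offset, with or without the block; their median log2 fold change of 0.12 turned to -0.0726 when reads of either strand were counted. YAP/TAZ-TEAD targets had 1 lower with the offset, with or without the block. MRTF-SRF targets had 2 lower with library size only, with upper quartile factors or with a filter of 1 CPM in 3 libraries, 0 with reads of either strand, and 1 to 2 with 1 library left out (2 without Yes WT replicate 1, and likewise without Yes T348I replicate 2). The cause of these differences was not tested. The replicate numbers pair nothing in the labels, the deviations of same-numbered libraries correlated at -0.028, 0.001 and -0.019, and the replicate block alone left 8 members higher and 2 lower. With the longest transcript as length, Yes WT levels in CPM per kilobase were 82.98 for ZYX, 57.3 for TRIP6, 52.4 for PDLIM7, 35.9 for PXN, 23.5 for AJUBA, 11.9 for TGFB1I1, 10.8 for CSRP1, 10.3 for FHL2, 9.97 for LIMD1 and 6.72 for LPP, since that length is the shorter one. Antisense genes at a few CPM rest on few counts.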
